A study of Mus musculus with 48 samples.

Results

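Lipoprotein lipase and the genes that make, hold, inhibit or activate it were followed in mouse liver. The 9 genes were taken by symbol from the joined read counts of 29221 genes in 48 libraries: the lipases Lpl and Lipc, the maturation factor Lmf1, the endothelial anchor Gpihbp1, the inhibitors Angptl4, Angptl8 and Apoc3, and the activators Apoc2 and Apoa5. All 9 passed the filter on low counts in every comparison. Each library came from the whole liver of 1 mouse. All mice carried a floxed Pparg gene, ate their diets for 34 weeks in all, and received an AAV8 virus after 16 weeks of feeding. The virus carried either Cre recombinase (AAV8-TBG-Cre, labelled knockout) or no Cre (AAV8-TBG-null, control) behind TBG, a promoter active in hepatocytes, so other liver cells keep their Pparg by design. Males were fed a high fat (HF) diet for 34 weeks, or the HF diet for 18 weeks and then a fat-rich diet with added cholesterol and fructose (HFCF) for 16 weeks. Females were fed the HF or HFCF diet in the same way, or a low fat (LF) diet for 34 weeks. With both viruses this made 4 male groups of 6 libraries and 6 female groups of 4. The strain and the ages beyond adult, and whether male and female libraries were prepared together, are not given in the sources used here. Sex and a preparation batch therefore cannot be told apart.

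Lipoprotein lipase cuts the triglyceride of chylomicrons and very low density lipoproteins on the capillary wall, mostly in muscle, heart and fat. Hepatocytes of the adult liver make little of it, while macrophages, among them the lipid-laden macrophages of fatty liver, express it. The liver instead makes hepatic lipase (Lipc) and secretes most of the proteins that turn lipoprotein lipase up or down elsewhere in the body. Lpl and Angptl4 are known target genes of PPAR receptors in several tissues. RNA of a whole organ cannot tell fewer cells of a type apart from less RNA per cell.

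The libraries held 15338239 to 22072884 reads on genes. Pparg itself, counted over the whole gene so that deleted and kept exons are not separated, was not lower in the labelled knockouts: in HFCF males it measured 56.3 ± 6.18 CPM (read counts scaled to library size with TMM factors, SD, n = 6) against 32.3 ± 5.47 CPM (n = 6) in controls, and its mean was also higher in the other 4 labelled-knockout groups. The term labelled knockout is used for that reason. Separately, 5 libraries stood apart from their own groups, with a root mean square log2 deviation over 1.5 times the median of all libraries (0.483 to 0.579 against a median of 0.291). They were replicate 1 of the HFCF male controls, the LF female controls, the HF female controls and the HFCF female labelled knockouts, and replicate 3 of the HF female labelled knockouts. Member calls that change when these 5 libraries are left out together are given with both values.

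Per transcript length the 9 genes spanned a wide range. In FPKM, the authors' length-scaled level, averaged over the 48 libraries, Apoc3 stood at 1497 and Apoa5 at 413. Lipc at 69.7, Angptl8 at 43.4 and Angptl4 at 31.4 FPKM were intermediate, and Lpl at 8.85, Gpihbp1 at 8.52, Apoc2 at 6.56 and Lmf1 at 3.08 FPKM were low. These lengths sum all annotated exons of a gene. For Lpl they give 10478 bases where its principal transcript has 4115, and on that shorter length its mean would be 22.6 FPKM. On the longest principal transcript Gpihbp1 would stand at 26.4 FPKM, above Lpl, and Apoc3 at 2885 FPKM. Apoa5 would be at 414, Angptl8 at 43.4, Angptl4 at 31.2 and Apoc2 at 7.33 FPKM. No principal transcript length was at hand for Lipc and Lmf1. Lpl varied most over the libraries, with its highest CPM 36.3 times its lowest, and Lmf1 least, at 1.83 times.

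HFCF livers had more Lpl than HF livers in both sexes and both virus groups, between 4.90-fold and 7.81-fold. The hepatocyte genes Lipc, Angptl8, Apoa5 and Apoc3, and also Lmf1, were lower on HFCF in control females and in labelled-knockout males. In labelled-knockout females these 5 and Angptl4 were not called with all libraries (2118 genes called in all). They were called lower without the 5 libraries that stand apart (5433 genes called in all). Lipc, Angptl8, Apoa5 and Apoc3 were also called lower there without HFCF replicate 1 alone, and Angptl4 without HF replicate 3 alone. A gene is called where edgeR's quasi-likelihood test gave a Benjamini-Hochberg adjusted p under 0.05 over all genes tested. On HFCF against HF, 2 members were called higher and 5 lower in control females (30.8% of all genes called, 16.9% higher and 13.8% lower). In labelled-knockout females 1 was called higher (14.5% of all genes called, 8.44% higher and 6.01% lower). In control males 1 was called higher (22.3% of all genes called, 13% higher and 9.31% lower), and in labelled-knockout males 1 higher and 5 lower (41.7% of all genes called, 21.6% higher and 20% lower). The labelled knockout called 2 members higher and 1 lower in HF males (18.5% of all genes called, 8.57% higher and 9.88% lower). In HFCF males it called 1 lower (2.21% of all genes called, 0.933% higher and 1.27% lower).

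In females the labelled knockout called no member with edgeR or with DESeq2. The share of all genes called was 0 on LF, 0 on HF and 0.0534% on HFCF. The number of members with an unadjusted p under 0.05 was 0, 1 and 4. Among all genes tested, 355 of 14285, 1135 of 14128 and 1340 of 14980 had such a p, in that order. HF against LF called no member in control females (0.696% of all genes). There 3 members and 2314 of 14216 genes had an unadjusted p under 0.05, and DESeq2 called 2 members and 648 genes in all. In labelled-knockout females HF against LF called 1 member lower (0.155% of all genes called, 0.0704% higher and 0.0844% lower). Male against female HF controls had 1 member called higher and 5 lower (18.1% of all genes called, 8.52% higher and 9.58% lower). The same comparison on HFCF called 0 (2.63% of all genes), with 0 members called by DESeq2. There 1 member and 2269 of 15054 genes had an unadjusted p under 0.05. The diet and the labelled-knockout comparisons share libraries, so their values are set side by side only.

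**Figure D1:**
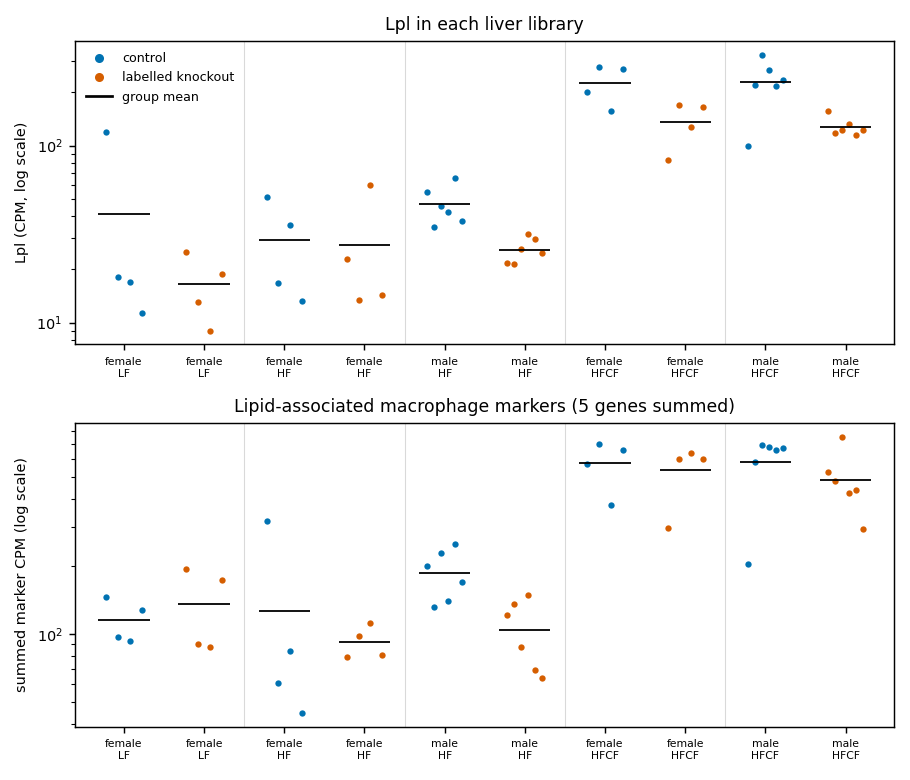
Lpl in CPM (upper panel) and the summed CPM of 5 lipid-associated macrophage markers (lower panel), both on log axes, for each library of the 10 groups; points are libraries (blue, control; orange, labelled knockout) and bars are group means. All HFCF libraries lie at or above 83.4 CPM of Lpl, and LF female control replicate 1 stands at 119 CPM above its group.

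Lpl, the gene of lipoprotein lipase itself (ENSMUSG00000015568, GRCm38 chromosome 8, 68880491 to 68907448), followed the HFCF diet. In HFCF male controls it ran from 99.6 to 328 CPM with a median of 227. In HF male controls it ran from 34.9 to 65.4 CPM with a median of 43.8. Every HFCF male control was above every HF male control, although replicate 1 of the HFCF group (99.6 CPM) lay far under its other 5 libraries, which began at 218 CPM. The means of 228 ± 74.8 and 46.7 ± 11.5 CPM (SD, n = 6 each) differed by 2.30 on the log2 scale (SE 0.23, edgeR adjusted p = 7.65e-05).

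The labelled-knockout males also differed between the diets. Their Lpl ran from 115 to 156 CPM (median 122) on HFCF and from 21.5 to 31.6 CPM (median 25.4) on HF, with no overlap, a log2 difference of 2.31 (SE 0.10, edgeR adjusted p = 5.59e-09). Female HFCF controls measured 201, 277, 157 and 271 CPM. Female HF controls measured 51.4, 16.8, 35.4 and 13.3 CPM. The lowest female HFCF control was thus above the highest HF control, and the log2 difference was 2.97 (SE 0.42, edgeR adjusted p = 0.00546). In labelled-knockout females the HFCF livers held 83.4, 171, 127 and 165 CPM and the HF livers 22.9, 13.4, 59.6 and 14.3 CPM. These also did not overlap, with a log2 difference of 2.29 (SE 0.47, edgeR adjusted p = 0.0119) that was 3.21 without the libraries that stand apart. All 4 diet calls of Lpl held in every fit that left out 1 library.

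Across the labelled knockout, Lpl was lower in males. In HF males the 6 controls (34.9 to 65.4 CPM) all lay above the 6 labelled knockouts (21.5 to 31.6 CPM), whose mean was 25.8 ± 4.12 CPM. The log2 difference was -0.86 (SE 0.14, edgeR adjusted p = 0.000691), and it stayed called in all 12 fits that left out 1 library. In HFCF males the labelled knockouts averaged 128 ± 15.1 CPM against 228 ± 74.8 CPM, and the log2 difference was -0.83 (SE 0.20, edgeR adjusted p = 0.0398). Control replicate 1, at 99.6 CPM, lay under every labelled knockout, and the other 5 controls lay above every one. Of the 12 fits that left out 1 library the call held in 1, the one without this control, at -0.98 (adjusted p = 4.67e-05), and the others gave adjusted p-values up to 0.0958. The difference between the diets in this effect was 0.01 (SE 0.26, edgeR adjusted p = 0.992).

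In females the Lpl values did not separate by virus. LF controls held 119, 18, 17 and 11.3 CPM and LF labelled knockouts 25.1, 13, 9.01 and 18.8 CPM. The log2 difference was -1.32 (SE 0.69, edgeR adjusted p = 1), and without control replicate 1, at 119 CPM, it was 0.12. On HF the log2 difference was -0.05 (SE 0.56, adjusted p = 0.99). With 1 library left out it ran from -0.79 to 0.39, and without the libraries that stand apart it was -0.35 (SE 0.35, adjusted p = 0.855). On HFCF the means were 137 ± 40.4 and 226 ± 57.9 CPM (n = 4 each), and the log2 difference was -0.71 (SE 0.24, adjusted p = 0.544) with overlapping ranges. The effect in males minus that in females was -0.80 (SE 0.52, edgeR adjusted p = 0.583) on HF and -0.12 (SE 0.33, adjusted p = 0.938) on HFCF, and neither was called. Between male and female HF controls Lpl differed by 0.68 (SE 0.33, edgeR adjusted p = 0.165), and by 1.10 (adjusted p = 0.00828) without female replicate 1, at 51.4 CPM.

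Over all groups, mean Lpl fell into an upper set of 4 HFCF groups (128 to 228 CPM) and a lower set of 6 HF and LF groups (16.5 to 46.7 CPM). Among neighbours in the order of means, only HFCF male labelled knockouts (128 ± 15.1) and HF male controls (46.7 ± 11.5) had ranges that did not overlap. The other LF and HF groups ran into each other, from 41.3 ± 51.8 CPM in LF female controls, which rests on replicate 1, down to 16.5 ± 7.0 CPM in LF female labelled knockouts.

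The genes whose log2 CPM ran most like Lpl were Gpnmb (Pearson r = 0.954 over 48 libraries), Lgals3 (r = 0.946) and Arhgef2 (r = 0.944). Gpnmb and Lgals3 are both known from lipid-laden macrophages. The libraries share diet, sex and virus groups, and within the 10 groups the median r was 0.909 with Gpnmb, 0.777 with Lgals3 and 0.879 with Arhgef2. The r with Gpnmb was above 0 in 9 of the 10 groups and at its lowest -0.239. A list of 5 markers of lipid-associated macrophages (Trem2, Gpnmb, Cd9, Spp1, Itgax) moved with the diet: all 5 were called higher on HFCF in control males (13% of all genes), control females (16.9%) and labelled-knockout males (21.6%), and 4 of 5 in labelled-knockout females (8.44%). Their summed level ran from 205 to 691 CPM in HFCF male controls and from 132 to 251 CPM in HF male controls. In HF males 4 of the 5 were called lower in the labelled knockout (9.88% of all genes), where the sum ran from 64.0 to 149 CPM. In HFCF males none was called (2.21% of all genes), with sums from 293 to 754 CPM. The part of these cells in the Lpl values was not tested. The adipocyte genes Adipoq, Retn and Plin1 were under 1 CPM in every library, and their sum with Car3, a gene also known from hepatocytes, ran from 461 to 3116 CPM.

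Against a list of 5 general macrophage markers (Cd68, Adgre1, Csf1r, Lyz2, Ctss), none of which was called between virus groups in males (18.5% of all genes on HF, 2.21% on HFCF), Lpl was lower in the labelled knockout. Lpl over their summed CPM was 0.0980 ± 0.0165 in HF male labelled knockouts and 0.168 ± 0.0369 in controls (n = 6 each). It was 0.225 ± 0.0348 in HFCF male labelled knockouts and 0.380 ± 0.0410 in controls. Neither pair overlapped, control replicate 1 of the HFCF males included, and each had a 2-sided exact permutation p of 0.00216, the smallest that 6 against 6 libraries allow (adjusted 0.0108 over 15 ratio tests). In females the ratio was 1.29 to 1.5 times higher in controls, with exact permutation p-values of 0.114 on HFCF, 0.229 on HF and 0.514 on LF. The LF figure rests on control replicate 1, whose ratio was 0.307. Without it the LF controls averaged 0.0616 ± 0.00659 (n = 3), against 0.0630 ± 0.0170 in the labelled knockouts.

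Against the lipid-associated macrophage markers the HF male groups did not separate. Lpl over their summed CPM was 0.276 ± 0.112 in HF male labelled knockouts and 0.253 ± 0.0366 in controls (n = 6 each, exact permutation p = 0.872). In HFCF males it was 0.283 ± 0.0841 against 0.401 ± 0.0650, with overlap (exact permutation p = 0.0195, adjusted 0.0536). In HFCF females it was 0.259 ± 0.0408 against 0.394 ± 0.0285 (n = 4 each, exact permutation p = 0.0286, adjusted 0.0536), without overlap. On HF and LF the female groups overlapped, with exact permutation p-values of 0.829 and 0.2. The male difference on HF thus depended on which macrophage list Lpl was set against. The ratios were chosen after the values had been seen.

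Among the genes made by hepatocytes, promoter sequences were at hand for Lipc, Angptl8, Apoa5 and Apoc2, from RefSeq on GRCm38.p6. They are shown because each of these genes was called between diets or between sexes. Each window holds 250 bases before the start and 50 after it, 5′ to 3′ on the gene's strand. Capitals mark CACGTG (an E-box) and AGGTCA (a nuclear receptor core motif).
Lipc, chr9:70952172-70952471, minus strand: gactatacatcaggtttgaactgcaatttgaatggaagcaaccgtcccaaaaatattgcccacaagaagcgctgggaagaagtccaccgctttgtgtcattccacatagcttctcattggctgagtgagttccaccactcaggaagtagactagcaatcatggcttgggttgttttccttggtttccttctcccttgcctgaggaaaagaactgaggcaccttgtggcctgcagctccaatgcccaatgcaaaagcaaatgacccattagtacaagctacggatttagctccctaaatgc
Angptl8, chr9:21835260-21835559, plus strand: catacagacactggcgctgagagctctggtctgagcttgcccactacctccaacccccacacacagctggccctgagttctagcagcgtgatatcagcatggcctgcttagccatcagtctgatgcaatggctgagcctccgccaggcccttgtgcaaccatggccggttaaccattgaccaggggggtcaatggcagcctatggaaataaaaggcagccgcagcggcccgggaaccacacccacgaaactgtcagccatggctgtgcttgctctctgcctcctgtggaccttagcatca
Apoa5, chr9:46268383-46268682, plus strand: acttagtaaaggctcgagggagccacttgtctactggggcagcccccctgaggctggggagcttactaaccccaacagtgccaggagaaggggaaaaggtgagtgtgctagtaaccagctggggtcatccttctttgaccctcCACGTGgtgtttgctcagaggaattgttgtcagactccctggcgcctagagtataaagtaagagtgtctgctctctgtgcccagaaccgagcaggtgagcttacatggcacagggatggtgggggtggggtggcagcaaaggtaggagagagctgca
Apoc2, chr7:19677892-19678191, minus strand: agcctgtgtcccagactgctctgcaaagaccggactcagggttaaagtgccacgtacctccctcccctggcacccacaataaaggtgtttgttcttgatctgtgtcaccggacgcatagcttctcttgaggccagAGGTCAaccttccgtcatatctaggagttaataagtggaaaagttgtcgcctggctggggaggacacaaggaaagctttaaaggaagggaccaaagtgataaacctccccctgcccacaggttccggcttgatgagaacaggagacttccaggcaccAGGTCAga
The windows were searched on both strands for the E-box CACGTG and the nuclear receptor core AGGTCA. They were also searched for the TATA box letters TATAAA. Of 32851 mouse promoter windows of the same length, 7.15% held the E-box, 16.3% the nuclear receptor core and 13.6% the TATA box letters. Apoa5 held CACGTG at -107 and TATAAA at -56, counted from the start of the RefSeq transcript. Apoc2 held AGGTCA at -115 and 42. Lipc and Angptl8 held none of the 3, and no match overlapped another. A match is a stretch of letters and no measured site.

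**Figure D2:**
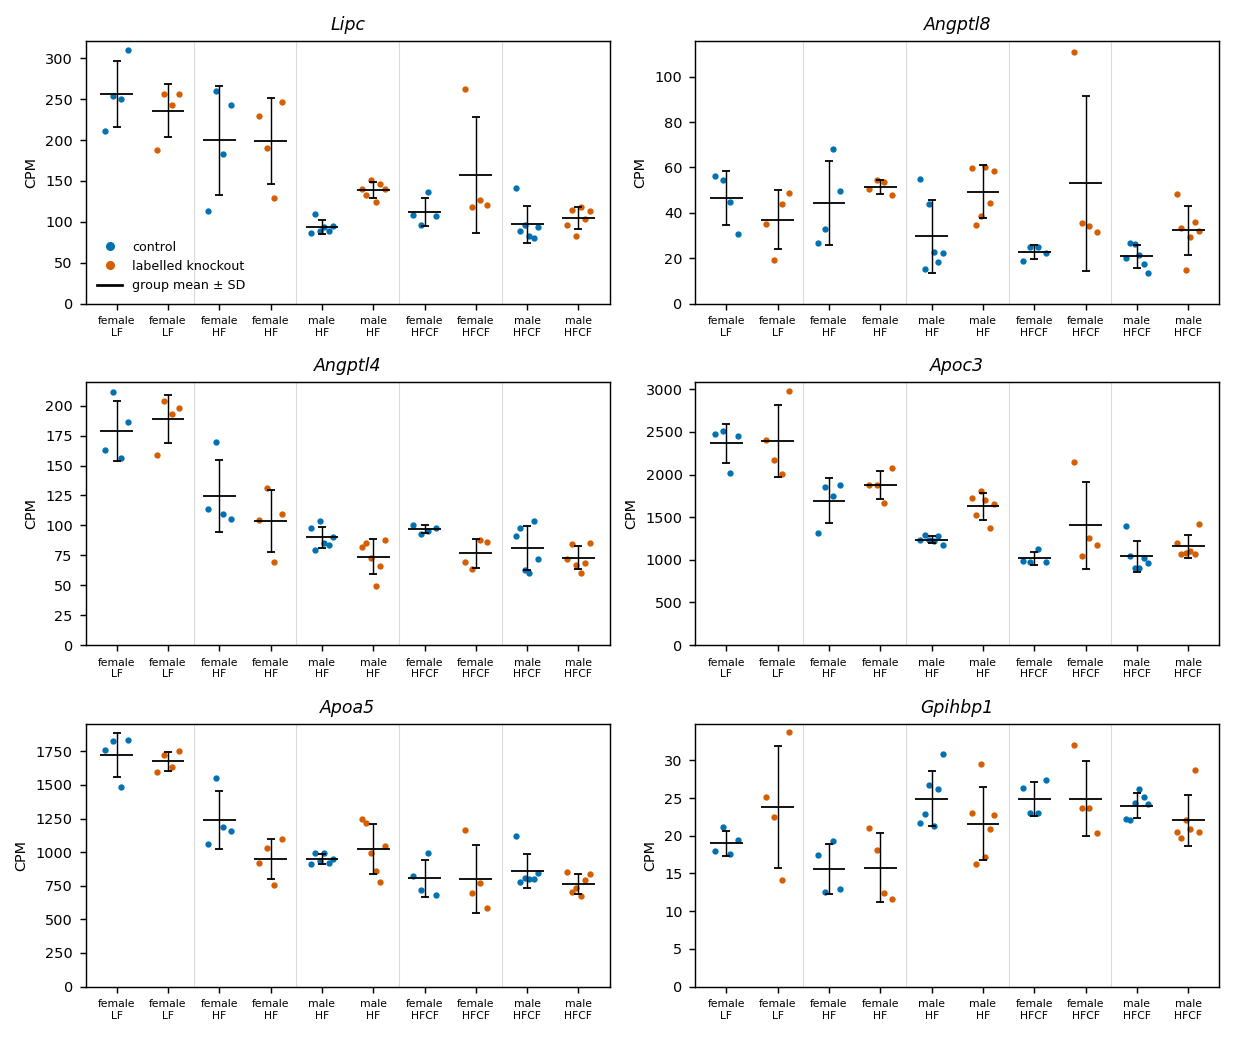
CPM of 6 members in each library of the 10 groups, on linear axes from 0; points are libraries (blue, control; orange, labelled knockout), bars are means ± SD. HFCF female labelled-knockout replicate 1 stands at 263 CPM of Lipc and 111 CPM of Angptl8, above the other 3 libraries of its group.

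Lipc (ENSMUSG00000032207, chromosome 9, 70798128 to 70952226), which encodes hepatic lipase, the enzyme that trims remnants and high density lipoproteins in the liver, rose in the HF male labelled knockout. The 6 labelled knockouts ran from 124 to 151 CPM (median 141) and the 6 controls from 86.6 to 110 CPM (median 91.2). The ranges did not overlap, and the log2 difference was 0.56 (SE 0.07, edgeR adjusted p = 4.23e-05), called in all 12 leave-one-out fits. In HFCF males the values were 105 ± 13.5 and 96.9 ± 22.4 CPM (n = 6 each) and overlapped, with a log2 difference of 0.12 (SE 0.13, adjusted p = 0.74). The difference between these diet-specific effects was -0.46 (SE 0.15, edgeR adjusted p = 0.0987) and was not called. In females the log2 differences were -0.10 (SE 0.14) on LF, 0.01 (SE 0.26) on HF and 0.51 (SE 0.26) on HFCF, with edgeR adjusted p-values from 0.566 to 1. The HFCF value was 0.13 without labelled-knockout replicate 1, which held 263 CPM.

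Lipc also differed 2.12-fold between the sexes on HF. Female HF controls held 113, 260, 183 and 243 CPM against 86.6 to 110 CPM in the 6 male HF controls. The lowest female just cleared the highest male, and the male minus female log2 difference was -1.09 (SE 0.18, edgeR adjusted p = 0.00211), called in all 10 leave-one-out fits. On HFCF the sexes overlapped, at 96.9 ± 22.4 CPM in male and 112 ± 17.3 CPM in female controls (log2 difference -0.22, SE 0.15, edgeR adjusted p = 0.559). In control females HFCF livers were lower than HF livers by a log2 difference of -0.80 (SE 0.23, adjusted p = 0.0276), with overlapping ranges and a call in 2 of 8 leave-one-out fits. In control males the diet difference was 0.05 (SE 0.12, adjusted p = 0.781) and in labelled-knockout males -0.40 (SE 0.08, adjusted p = 0.00128). In labelled-knockout females it was -0.34 (SE 0.28, adjusted p = 0.454), and -0.84 (SE 0.11, adjusted p = 0.000368) without the libraries that stand apart, HFCF replicate 1 at 263 CPM among them.

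The diet effect on Lipc was 0.88 more positive in control males than in control females on the log2 scale (SE 0.25, edgeR adjusted p = 0.185). Without HF female control replicate 1, the only one of its group under 183 CPM, the same test gave an adjusted p of 0.0034. It was 0.94 (SE 0.15, adjusted p = 0.00096) without the libraries that stand apart. The closest patterns to Lipc over the 48 libraries were those of Entpd8, Fxyd1 and Hacl1 (r = 0.934 each), with a median r within groups of 0.920, 0.858 and 0.915.

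Lmf1 (ENSMUSG00000002279, chromosome 17, 25579174 to 25662826), an endoplasmic reticulum factor that folds both lipases, was the steadiest member. Its group means ran from 35.3 to 47.8 CPM. It fell on HFCF in labelled-knockout males, from 43.1 to 53.0 CPM (6 HF libraries, median 47.0) to 31.9 to 38.0 CPM (6 HFCF libraries, median 37.3). These did not overlap, with a log2 difference of -0.40 (SE 0.07, edgeR adjusted p = 0.000283). In control females it fell by 0.35 on the log2 scale (SE 0.09, adjusted p = 0.0189), from 42.6, 51.4, 42.4 and 46.6 to 32.6, 33.8, 35.6 and 39.3 CPM, again with no overlap, and the call held in 6 of 8 leave-one-out fits. In control males the difference was -0.08 (SE 0.09, adjusted p = 0.558). In labelled-knockout females it was -0.13 (SE 0.18, adjusted p = 0.656), and -0.39 (SE 0.11, adjusted p = 0.0189) without the libraries that stand apart. No labelled-knockout comparison called it, with log2 differences from -0.20 to 0.22. The 3 most similar genes, Tufm, Tmbim6 and Ndufv1, had r from 0.811 to 0.816, and a median r within groups of 0.769, 0.505 and 0.742.

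Gpihbp1 (ENSMUSG00000022579, chromosome 15, 75596628 to 75599481), the capillary protein that carries lipoprotein lipase to the vessel lumen and holds it there, differed between the sexes on HF and between diets in control females. Female HF controls held 17.5, 12.6, 19.3 and 12.9 CPM, and male HF controls 21.3 to 30.8 CPM (median 24.6). All 6 males were above all 4 females, a log2 difference of 0.68 (SE 0.14, edgeR adjusted p = 0.00801). Female HFCF controls held 26.3, 23.0, 23.0 and 27.3 CPM, all above the HF females, with a log2 difference of 0.70 (SE 0.15, adjusted p = 0.0109). Both calls held in every fit that left out a library. In labelled-knockout females the means were 24.9 ± 5.01 CPM on HFCF and 15.8 ± 4.55 CPM on HF (n = 4 each), with overlap. That log2 difference of 0.66 (SE 0.20, edgeR adjusted p = 0.0552) was not called, and it was called in 1 of 8 leave-one-out fits (adjusted p = 0.0367 without HF replicate 1). The authors' deposited values give this contrast a log2 fold change of 0.67 and an adjusted p of 0.0247. In males the diet difference was -0.05 (SE 0.09) in controls and 0.03 (SE 0.13) in labelled knockouts, and neither was called.

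The diet difference in Gpihbp1 in control males minus that in control females was -0.74 (SE 0.17, edgeR adjusted p = 0.127), and -0.77 (SE 0.18, adjusted p = 0.00956) without the libraries that stand apart. Its nearest neighbours by pattern, Eng, Clec14a and Adgrl4 (r from 0.825 to 0.859, median r within groups 0.736, 0.747 and 0.825), are endothelial genes. Of 5 endothelial markers (Pecam1, Cdh5, Cd34, Vwf, Plvap), 4 were called higher on HFCF in control females (16.9% of all genes) and 2 higher in male than female HF controls (8.52%). On HFCF 2 were also called higher in control males (13%), 3 in labelled-knockout males (21.6%) and 3 in labelled-knockout females (8.44%). Gpihbp1 was not called in those comparisons. Their part in the Gpihbp1 values was not tested. Gpihbp1 as a share of their summed CPM was 11.6 ± 0.747% in HFCF and 11.7 ± 1.46% in HF control females (n = 4 each). In HF control males it was 14.2 ± 2.28% (n = 6), and this sex difference was not tested. The labelled knockout called Gpihbp1 in no comparison, with log2 differences from -0.21 to 0.35.

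Angptl4 (ENSMUSG00000002289, chromosome 17, 33773750 to 33781575), a fasting-induced protein that inactivates lipoprotein lipase, was highest in LF females. LF female controls held 163, 211, 156 and 186 CPM and LF labelled knockouts 159, 204, 193 and 198 CPM. HF labelled-knockout females held 104, 131, 69.7 and 110 CPM, all lower than any LF library, with a log2 difference of -0.87 (SE 0.16) whose edgeR adjusted p was 0.0642. The authors' deposited table gives this contrast a log2 fold change of -0.86 and an adjusted p of 0.000213. In control females the same diet difference was -0.53 (SE 0.16, edgeR adjusted p = 0.157). From HF to HFCF the labelled-knockout females differed by -0.42 (SE 0.18, edgeR adjusted p = 0.144), and by -0.51 (SE 0.14, adjusted p = 0.0155) without the libraries that stand apart.

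Male HF controls had less Angptl4 than female HF controls, 79.6 to 104 CPM (median 87.9) against 114, 170, 109 and 105 CPM, without overlap. The log2 difference was -0.46 (SE 0.13, edgeR adjusted p = 0.0284) and was called in 5 of 10 leave-one-out fits. With the labelled knockout the mean was lower in 4 of 5 comparisons, by log2 differences of -0.15 to -0.31, and none was called (edgeR adjusted p 0.101 to 0.772). In HFCF females the 4 labelled knockouts (63.7 to 87.7 CPM) lay under the 4 controls (92.8 to 100.3 CPM), at an edgeR adjusted p of 0.547 and an unadjusted p of 0.0261. St3gal5 (r = 0.917), Slc22a5 (r = 0.855) and Pxmp4 (r = 0.852) had the most similar patterns, with a median r within groups of 0.769, 0.358 and 0.654.

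Angptl8 (ENSMUSG00000047822, chromosome 9, 21835510 to 21837347), a feeding-induced protein that takes part in the inhibition of lipoprotein lipase, lies inside Dock6 on the opposite strand and shares no exon bases with it. It spread widely within groups. Its mean was higher in the labelled knockout in 4 of 5 comparisons, and none was called. HF male labelled knockouts ran from 34.4 to 60.2 CPM (median 51.3) and controls from 15.4 to 54.7 CPM (median 22.5), which overlapped through control replicates 1 (54.7) and 3 (44.0). The log2 difference was 0.73 (SE 0.27, edgeR adjusted p = 0.0723), and it was called in the 2 fits that left out one or the other of these controls. In HFCF males it was 0.63 (SE 0.22, adjusted p = 0.181), called in the 1 fit without labelled-knockout replicate 3, at 14.9 CPM.

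In HFCF females Angptl8 held 111, 35.5, 34.1 and 31.7 CPM in labelled knockouts and 18.7, 25.1, 24.8 and 22.4 CPM in controls. The groups did not overlap, yet the log2 difference of 1.25 (SE 0.38) had an edgeR adjusted p of 0.503, and it was 0.58 without replicate 1 at 111 CPM. On HF and LF the female differences were 0.24 (SE 0.25) and -0.32 (SE 0.27). Between diets Angptl8 was lower on HFCF in control females (-0.94, SE 0.26, edgeR adjusted p = 0.0254, no overlap, called in 3 of 8 leave-one-out fits) and in labelled-knockout males (-0.61, SE 0.21, adjusted p = 0.0308, called in 7 of 12). In labelled-knockout females the difference was 0.03 (SE 0.36, adjusted p = 0.965). It became -0.59 with an adjusted p of 0.00105 without HFCF labelled-knockout replicate 1. Nags (r = 0.770), S1pr5 and Repin1 were most alike in pattern, with a median r within groups of 0.618, 0.245 and 0.411.

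**Figure D3:**
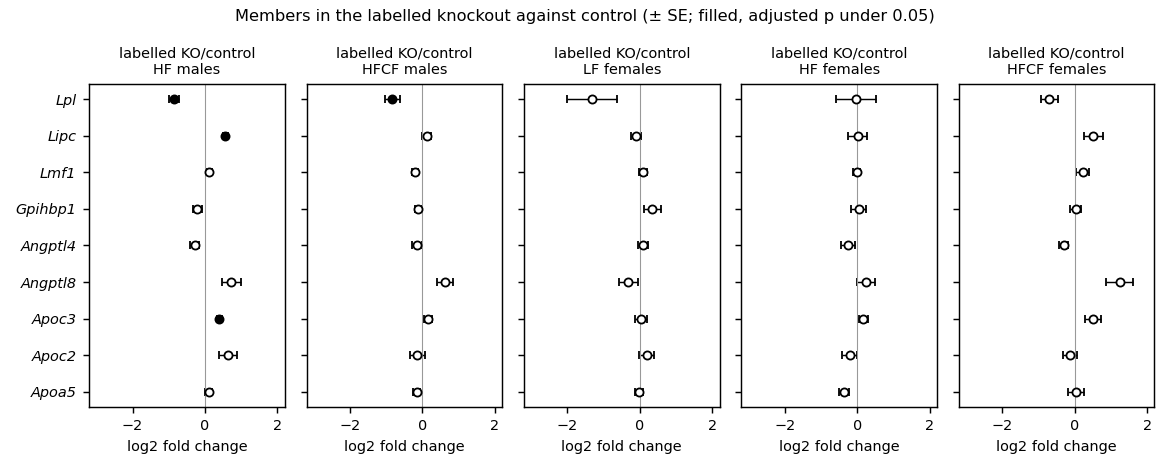
Log2 fold change of the 9 members in labelled knockout against control in 5 settings; points are edgeR estimates with their SE as bars, filled where the adjusted p is under 0.05. Lpl, Lipc and Apoc3 are filled in HF males and Lpl in HFCF males, and no point is filled in females.

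Apoc3 (ENSMUSG00000032081, chromosome 9, 46232933 to 46235636) encodes an apolipoprotein that restrains lipoprotein lipase and slows the uptake of remnants. It rose in the HF male labelled knockout, which ran from 1368 to 1806 CPM (median 1679) against 1173 to 1285 CPM (median 1231) in controls. No labelled knockout fell into the control range, and the log2 difference was 0.39 (SE 0.07, edgeR adjusted p = 0.000968), called in all 12 leave-one-out fits. In HFCF males the difference was 0.16 (SE 0.11, adjusted p = 0.572). In females it was 0.03 (SE 0.16) on LF, 0.17 (SE 0.12) on HF and 0.49 (SE 0.22) on HFCF. None of the female values was called (edgeR adjusted p 0.553 to 1), and the HFCF value was 0.20 without labelled-knockout replicate 1, at 2153 CPM.

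Apoc3 was lower on HFCF than on HF in control females and labelled-knockout males. Female LF controls held 2473, 2516, 2021 and 2449 CPM, HF controls 1309, 1850, 1744 and 1875 CPM, and HFCF controls 990, 971, 1128 and 979 CPM. Each diet lay wholly under the one before it. The step from HF to HFCF was -0.71 (SE 0.13, edgeR adjusted p = 0.00666, called in 8 of 8 leave-one-out fits), and that from LF to HF -0.49 (SE 0.14, adjusted p = 0.144). In labelled-knockout males HFCF was lower by a log2 difference of -0.49 (SE 0.09, adjusted p = 0.000451). In labelled-knockout females the means were 1404 ± 507 CPM on HFCF and 1875 ± 163 CPM on HF (n = 4 each). The log2 difference was -0.41 (SE 0.21, edgeR adjusted p = 0.22), and -0.72 (SE 0.10, adjusted p = 0.000642) without the libraries that stand apart, HFCF replicate 1 at 2153 CPM among them. In control males the difference was -0.24 (SE 0.10, adjusted p = 0.0807), and it was -0.35 (SE 0.06, adjusted p = 0.000307) without replicate 1 of the HFCF controls. Male HF controls were under female HF controls by -0.45 (SE 0.10, edgeR adjusted p = 0.00849), and every male was lower than every female. Aspdh (r = 0.962), Fxyd1 (r = 0.956) and Serpina1d (r = 0.944) ran most like Apoc3, with a median r within groups of 0.838, 0.880 and 0.915.

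Apoa5 (ENSMUSG00000032079, chromosome 9, 46268633 to 46271919), an activator of triglyceride clearance that lies in the same apolipoprotein cluster as Apoc3, was lower on HF than on LF in labelled-knockout females. LF labelled-knockout females held 1599, 1719, 1636 and 1752 CPM and HF labelled-knockout females 922, 1034, 755 and 1095 CPM. The groups were far apart, with a log2 difference of -0.82 (SE 0.12, edgeR adjusted p = 0.0383). The call held in 3 of 8 leave-one-out fits, and the difference was -0.74 (adjusted p = 0.0673) without HF replicate 3 and the other libraries that stand apart. In control females HF against LF was -0.49 (SE 0.14, adjusted p = 0.142).

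HFCF against HF gave Apoa5 a log2 difference of -0.60 (SE 0.16, edgeR adjusted p = 0.0205) in control females, without overlap, called in 4 of 8 leave-one-out fits. In labelled-knockout males it was -0.41 (SE 0.11, adjusted p = 0.00737). In control males it was -0.14 (SE 0.09, adjusted p = 0.263), and -0.23 (SE 0.05, adjusted p = 0.00301) without HFCF replicate 1. In labelled-knockout females it was -0.24 (SE 0.20, adjusted p = 0.47), and -0.55 (SE 0.11, adjusted p = 0.00453) without the libraries that stand apart. Male HF controls, at 909 to 995 CPM (median 944), were all under female HF controls, at 1060, 1549, 1187 and 1155 CPM (log2 difference -0.38, SE 0.10, adjusted p = 0.0202). The labelled knockout gave log2 differences from -0.36 to 0.10 and no call.

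The mean ratio of Apoc3 to Apoa5 within a library was higher in the labelled knockout in all 5 settings, and after adjustment the difference passed the threshold in HFCF males only. In HF females it was 1.99 ± 0.174 against 1.38 ± 0.202 in controls (n = 4 each). In HFCF females it was 1.74 ± 0.223 against 1.28 ± 0.138. Neither female pair overlapped, and both had a 2-sided exact permutation p of 0.0286, the smallest that 4 against 4 libraries allow (adjusted 0.0536 over the 15 ratio tests). In HFCF males it was 1.51 ± 0.138 against 1.21 ± 0.0930 (n = 6 each, exact permutation p = 0.00216, adjusted 0.0108). In HF males it was 1.63 ± 0.275 against 1.30 ± 0.0635, with overlap (exact permutation p = 0.0238, adjusted 0.0536). In LF females the ratio was 1.42 ± 0.221 against 1.37 ± 0.0299 (exact permutation p = 0.743). This ratio too was chosen after the values had been seen.

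Apoc2 (ENSMUSG00000002992, chromosome 7, 19671579 to 19677941), the obligate cofactor of lipoprotein lipase, had 35 to 182 reads per library. Of its 813 exon bases 646, or 79.5%, also belong to Gm44805, a gene on the same strand with 0 to 6 reads per library. How reads in such shared exons were assigned is not given in the sources used here. Its values are therefore uncertain. It was lower in male than in female HF controls, at 1.97 to 4.75 CPM (median 2.88) against 4.80, 8.72, 8.58 and 6.32 CPM. These only just did not overlap, with a log2 difference of -1.14 (SE 0.29, edgeR adjusted p = 0.0192). In the HF male labelled knockout it measured 5.0 ± 1.18 CPM, against 3.21 ± 1.33 CPM (n = 6 each), and the log2 difference was 0.63 (SE 0.25, adjusted p = 0.0878), and no labelled-knockout comparison called it. Sall1, Setd4 and Ftx (r from 0.740 to 0.764) were nearest in pattern, with a median r within groups of 0.526, 0.608 and 0.217.

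**Figure D4:**
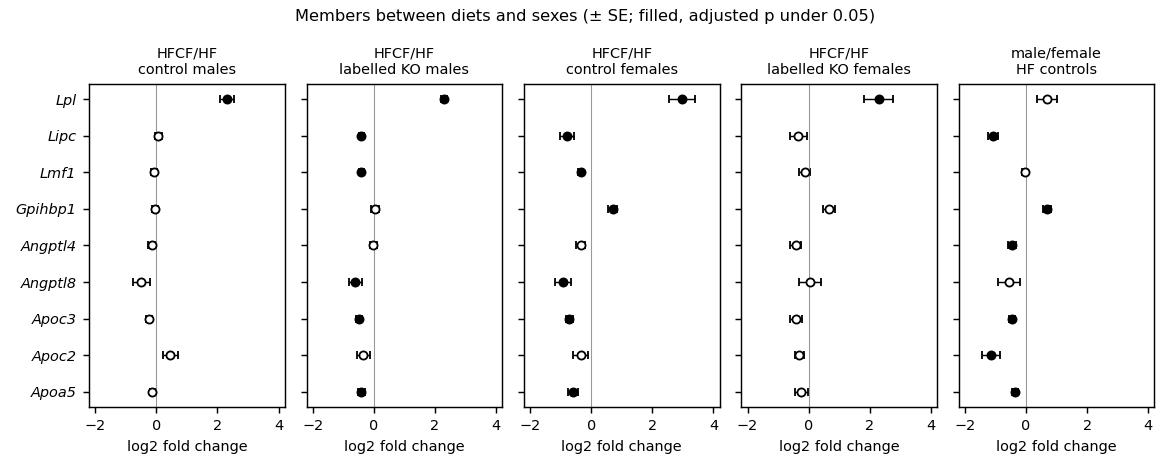
Log2 fold change of the 9 members between HFCF and HF livers in 4 settings and between male and female HF controls; points are edgeR estimates with their SE as bars, filled where the adjusted p is under 0.05. Lpl is filled and between 2.29 and 2.97 in each of the 4 diet panels, and 6 members are filled in the male to female panel.

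Over the 48 libraries Lpl ran opposite to 3 of the hepatocyte genes, with r of -0.801 to Apoc3, -0.720 to Lipc and -0.716 to Apoa5. These 3 ran together, with r of 0.889 between Lipc and Apoc3 and 0.844 between Apoa5 and Apoc3. These points share diet and sex groups. Within groups the median r was -0.504, -0.815 and -0.854 for the first 3 and 0.578 and 0.757 for the other 2. Angptl8 did not follow them as closely. Its r was 0.597 with Apoc3, 0.526 with Lipc and 0.305 with Apoa5, with medians within groups of 0.285, -0.0449 and -0.0866. With Angptl4 it was 0.124, and -0.157 within groups. With Lpl its r was -0.437 over all libraries and 0.214 within groups. Hepatocyte markers moved too. All 4 reported here (Alb, Ttr, Apoh, Asgr1) were called lower on HFCF in control males (9.31% of all genes), labelled-knockout males (20%) and control females (13.8%), and none in labelled-knockout females (6.01%). Between male and female controls 2 of the 4 were called lower in males on HF (9.58% of all genes), and none was called on HFCF (2.63%). The part of hepatocyte RNA in the sex differences of the members was not tested. In the HF male labelled knockout all 4 were called higher (8.57% of all genes), with summed levels of 75064 to 90380 CPM against 52442 to 73366 CPM. Lipc and Apoc3 rose in those same libraries, and the part of hepatocyte RNA in that rise was not tested.

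None of the 9 members was called in the 5 tests of a difference between effects, with edgeR. DESeq2 called 0 members in 4 of these tests and 1 in that of diet by sex, where it called 137 genes in all. The shares of all genes called were 1.56% for labelled knockout by diet in males, 0 for the same in females, 0 for labelled knockout by sex on each diet, and 0.00646% for diet by sex in controls. The members with an unadjusted p under 0.05 numbered 3, 0, 3 and 1, and 5 for diet by sex. Among all genes tested such a p was found for 2574 of 15096, 667 of 15445, 1590 of 15024 and 1515 of 15673. For diet by sex it was found for 2561 of 15491. Leaving out the libraries that stand apart gave 4 member calls for diet by sex, while all genes called went from 1 to 1790. They were Lipc, Apoa5 and Apoc3 with a positive and Gpihbp1 with a negative male minus female difference. For Apoa5 that difference was 0.45 (SE 0.14, edgeR adjusted p = 0.0451) against 0.47 (adjusted p = 0.223) with all libraries, and for Apoc3 0.49 (SE 0.10, adjusted p = 0.00463) against 0.48 (adjusted p = 0.214).

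Beside the members, 29 other genes of lipase handling, lipoprotein assembly and remnant clearance are reported. In the HF male labelled knockout 5 were called higher and 8 lower (8.57% and 9.88% of all genes). Those named by size were Apoc1 (a lipase-restraining apolipoprotein, log2 difference 0.40, SE 0.07) and Sdc1 (a heparan sulfate remnant receptor, 0.39, SE 0.08) among the higher. Apoa4 (an apolipoprotein of triglyceride-rich particles, -1.25, SE 0.25), Pltp (the phospholipid transfer protein, -0.96, SE 0.15) and Sort1 (a sorting receptor, -0.81, SE 0.22) were among the lower. Pltp overlaps Ctsa on the other strand, and the libraries do not mark strand. The list's median log2 difference was 0.04, against 0.00 over all genes tested. In HFCF males 1 was called (2.21% of all genes), Lsr, the lipolysis-stimulated lipoprotein receptor, at 0.33 (SE 0.07, edgeR adjusted p = 0.03). In females 0 of 29 were called on any diet with edgeR (0, 0 and 0.0534% of all genes on LF, HF and HFCF). On these diets 0, 5 and 5 of the list had an unadjusted p under 0.05. Among all genes tested 355 of 14285, 1135 of 14128 and 1340 of 14980 had such a p.

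On HFCF against HF the list had 2 genes called higher and 12 lower in control males (13% and 9.31% of all genes). In labelled-knockout males it had 6 and 13 (21.6% and 20% of all genes). In control females it had 3 and 9 (16.9% and 13.8% of all genes), and in labelled-knockout females 2 and 1 (8.44% and 6.01%). The list's median log2 difference lay between -0.25 and -0.17 in these 4 comparisons, and that of all genes between -0.02 and 0.01. Genes are named here only for comparisons where they were among the 3 largest called in their direction, and they may have been called in others. Apoa1, the main protein of high density lipoproteins, fell in control females (-0.68, SE 0.16) and labelled-knockout males (-0.61, SE 0.08). Nr1h4, the bile acid receptor FXR, fell in control females (-0.62, SE 0.12) and labelled-knockout females (-0.45, SE 0.13). Sort1 rose in control females (1.43, SE 0.45), control males (0.80, SE 0.19) and labelled-knockout males (0.94, SE 0.23). Apoa4 rose in labelled-knockout females (1.82, SE 0.40) and labelled-knockout males (1.32, SE 0.29), and Pltp in control females (1.18, SE 0.37) and labelled-knockout males (0.80, SE 0.13). Vldlr, a receptor for triglyceride-rich lipoproteins, was lower in males than females on HF (-0.85, SE 0.14) and HFCF (-1.47, SE 0.15). It was the listed gene called for labelled knockout by diet in males (1.56% of all genes), at 1.05 (SE 0.24, edgeR adjusted p = 0.0289).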

How the data were processed

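RNA was extracted from whole liver with Trizol, and the libraries do not mark strand, per the labels' protocols. STAR 2.6.1, HTSeq 0.6.1, DESeq2 and the GRCm38 (mm10) build are named in the submitters' processing notes. The authors deposited 11 comparison tables with raw read counts, size-factor normalised signal, FPKM, log2 fold changes, p-values and adjusted p-values, per the file headers. The counts were joined by gene identifier, and 0 of 1341082 repeated values differed. Each of the 48 libraries was matched to its group by its title, and 0 per-sample columns had no sample.

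From the deposited counts, CPM were computed with TMM factors over all libraries. The main test was edgeR 4.0.16 (quasi-likelihood, R 4.3.3) on the libraries of each comparison, after its filter on low counts, with Benjamini-Hochberg adjustment over all genes tested and a threshold of 0.05. It covered 13 pairwise comparisons and 5 tests of a difference between effects, and was tested on simulated data. The 3 ratios were tested by exact permutation, with adjustment over all 15 tests. Alternatives were DESeq2 1.42.0, other filters and scalings, all groups in one fit, a replicate block and each library left out. The titles number the mice but do not say that a number is shared between groups. Libraries of the same number did not deviate together in every pair of any comparison (lowest r -0.295, highest 0.462), so the numbers were not taken as pairs.

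The members and lists were chosen with earlier results of these data known. All 9 members are named. The other pathway genes named are among the 3 largest called per direction and comparison, with a mean of at least 1 CPM. Not all such genes are named. For each member the 3 genes with the highest correlation are named. Precision is limited by the 4 or 6 libraries per group, and for Apoc2 by its few reads. Some genes of the lists and 1 motif are not reported here, and the counts given leave these genes out.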

Additional observations from a re-analysis of the deposited data

Results flagged for a closer look

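In 90 sets of 1 member and 1 group, the highest or lowest library was checked for a gap from the rest that is large for the group's range. Chance gives about 1 in 20 such gaps, or 4.5 here, and 12 were found. They are not independent, since a library contributes to all 9 members.

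Replicate 1 of the HFCF male controls accounted for 3 of them. It held 141 CPM of Lipc (next 96.1), 1119 CPM of Apoa5 (next 847) and 1397 CPM of Apoc3 (next 1041), and it also had the lowest Lpl of its group. Replicate 1 of the HFCF female labelled knockouts held 263 CPM of Lipc (next 127) and 111 CPM of Angptl8 (next 35.5). Replicate 1 of the LF female controls held 119 CPM of Lpl (next 18.0), and its Gpnmb level was 18.0 CPM.

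The other gaps were in single genes. Lipc reached 110 CPM in HF male control replicate 2 (next 94.9), Angptl4 reached 169.6 CPM in HF female control replicate 2 (next 114), and Apoc2 reached 7.02 CPM in HF female labelled-knockout replicate 2 (next 5.8). Apoc3 was lowest at 2021 CPM in LF female control replicate 3 (next 2449) and highest at 1128 CPM in HFCF female control replicate 3 (next 990.1). Gpihbp1 reached 28.8 CPM in HFCF male labelled-knockout replicate 5 (next 22).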

How the results depend on the processing

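The number of members called moved by more than 1.5 times as follows, and the cause was not tested. For the labelled knockout in HFCF males (1 called), fitting all 10 groups together gave 0, while all genes called went from 324 to 195. For HF against LF the members called went from 0 to 2 with DESeq2's Wald test and 3 with all groups together in control females. All genes called there went from 99 to 648 and 910. In labelled-knockout females the members called went from 1 to 2 with DESeq2, without a filter and with all groups together, and to 0 without the 5 libraries that stand apart. All genes called went from 22 to 501, 124, 514 and 11 in that order. For HFCF against HF in labelled-knockout females (1 called) the members called were 2 with DESeq2, without a filter and with at least 10 counts in every library, 3 with all groups together and 7 without those 5 libraries. All genes called went from 2118 to 2988, 2082, 1898, 4199 and 5433 in that order. In control males (1 called) the members called were 2 with DESeq2 and 3 without the 5 libraries, and all genes called went from 3225 to 3800 and 5429. The test of diet by sex (0 called) gave 1 with DESeq2 and 4 without the 5 libraries, and all genes called went from 1 to 137 and 1790. Leaving out these libraries was chosen after seeing the data.

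Angptl8 on HFCF against HF in labelled-knockout females reversed to -0.59 without HFCF replicate 1 and to -0.56 without the 5 libraries. Its leave-one-out values ran from -0.59 to 0.21. DESeq2's size factors kept the side of the threshold of all 162 member results, and the direction of those called.

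With 1 library left out, the members called numbered 3 to 5 for the labelled knockout in HF males, 0 to 1 in HFCF males and 0 to 0 in each female diet. They numbered 0 to 0 and 0 to 2 for HF against LF in control and labelled-knockout females. For HFCF against HF they numbered 3 to 7 in control females, 1 to 5 in labelled-knockout females, 1 to 3 in control males and 5 to 6 in labelled-knockout males. Male against female gave 3 to 7 on HF and 0 to 0 on HFCF. The tests between effects gave 0 to 0 for labelled knockout by diet in each sex, 0 to 1 and 0 to 0 for labelled knockout by sex on HF and HFCF, and 0 to 4 for diet by sex. The number of all genes called in these fits is not given here, so the member counts cannot be set against it.

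With the replicate number as a block, the members called fell from 7 to 0 for HFCF against HF in control females, where no gene was called at all, from 6 to 3 for male against female HF controls, from 1 to 0 for the labelled knockout in HFCF males and from 1 to 0 for HF against LF in labelled-knockout females, and went from 1 to 2 for HFCF against HF in labelled-knockout females. All genes called went from 4526 to 0, 2624 to 1677, 324 to 165, 22 to 9 and 2118 to 1180 in that order. The replicate numbers were not taken as pairs.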
